A study of Homo sapiens with 21 samples.

Results

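The clustered protocadherins are a family of cell-surface adhesion genes that lie side by side on the long arm of chromosome 5. They were taken here as the protein-coding genes of chromosome 5 whose symbols place them in the alpha, beta or gamma cluster, which gave 53 of the 57500 genes in the count tables. The alpha cluster held 15 members, the beta cluster 16 and the gamma cluster 22, and 5 of the 53 were C-type members (PCDHAC1, PCDHAC2, PCDHGC3, PCDHGC4 and PCDHGC5). On hg38 the alpha members ran from chr5:140786136 to 141012347, the beta members from chr5:141051135 to 141249365 and the gamma members from chr5:141330571 to 141512981, all on the plus strand.

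Levels were measured by RNA-seq in HT1376 tumours. HT1376 is an established line of human bladder carcinoma cells, here implanted subcutaneously in female CB17 SCID mice that were 6 to 8 weeks old at the start. The mice received vehicle or 1 of 6 inhibitors of Polycomb repressive complex 2 (CPI-0209, valemetostat, MAK683, tazemetostat, PF-06821497 or CPI-1205) by mouth once a day, each compound at 75 mg/kg, and tumours were collected on day 15, 1 hour after the dose. Each of the 7 groups had 3 libraries, 21 in all. All came from 1 cell line, in hosts that lack T and B cells but keep other immune and stromal cells, and whether mouse reads were removed is not given in the sources used here. The labels do not say that the 3 libraries of a group came from separate animals, so the p-values measure the spread between libraries, which may be technical.

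In the alpha and gamma clusters each member has its own variable first exon and promoter, and that exon is spliced to constant exons shared by the whole cluster, whereas beta members are short genes without constant exons. The proteins recognise identical copies of themselves on neighbouring cells, and in neurons different cells use different sets of them, which lets a cell tell its own branches from those of others. Promoter choice in neurons involves DNA methylation and the binding of CTCF and cohesin at a short conserved promoter element with a CGCT core, while C-type members are used more uniformly. Polycomb repressive complex 2 is the enzyme complex that methylates lysine 27 of histone H3, with EZH2 or EZH1 as its catalytic subunit and EED as a subunit that binds the mark. MAK683 binds EED, and the other compounds inhibit EZH2 or both catalytic subunits.

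The promoter element is shown for the members whose values are described most fully, because it is the sequence feature that members of a cluster share. Windows of 300 bases, from 250 before to 50 after the start, came from RefSeq (GRCh38.p14) and were found for 47 of the 53 members; PCDHA3, PCDHA13, PCDHB6, PCDHB11, PCDHGA12 and PCDHGC5 had none. Each stretch below is 60 bases of the plus strand, 5′ to 3′, with the motif in capitals. The coordinates of the stretches are, in the same order, chr5:140855827-140855886, chr5:141094530-141094589, chr5:141223249-141223308, chr5:141245300-141245359, chr5:141373821-141373880, chr5:141382635-141382694, chr5:141387603-141387662, chr5:141397849-141397908 and chr5:141475866-141475925.
PCDHA10: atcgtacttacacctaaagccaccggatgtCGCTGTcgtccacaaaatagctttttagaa
PCDHB2: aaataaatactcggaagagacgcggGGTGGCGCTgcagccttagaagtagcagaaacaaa
PCDHB14: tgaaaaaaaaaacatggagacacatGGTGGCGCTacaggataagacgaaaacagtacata
PCDHB15: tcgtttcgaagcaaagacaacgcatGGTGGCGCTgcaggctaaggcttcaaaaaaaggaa
PCDHGA6: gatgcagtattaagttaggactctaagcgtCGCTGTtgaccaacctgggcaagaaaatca
PCDHGA7: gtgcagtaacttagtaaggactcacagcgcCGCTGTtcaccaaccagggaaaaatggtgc
PCDHGB4: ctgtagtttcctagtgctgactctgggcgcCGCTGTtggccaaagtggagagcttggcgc
PCDHGB5: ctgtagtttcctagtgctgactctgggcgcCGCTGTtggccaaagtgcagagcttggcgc
PCDHGC3: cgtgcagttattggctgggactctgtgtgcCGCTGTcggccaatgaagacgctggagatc

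Both motifs contain CGCT and were chosen after these windows had been read, as the most common words of each cluster, and both strands were searched. CGCTGT stood in 7 of 13 alpha windows, 1 of 14 beta windows and 17 of 20 gamma windows, against 11.2% of all 35116 windows of the same length. GGTGGCGCT stood in 13 of 14 beta windows, in 0 alpha and 0 gamma windows, and in 0.501% of all windows. Beta members that rose (PCDHB2) and beta members that fell (PCDHB14 and PCDHB15) with CPI-0209 thus carried the same 9-letter word. The median number of CpG pairs in a window was 7 in the alpha, 7.5 in the beta and 7 in the gamma cluster against 14 in all windows, and the C-type windows held 15 to 27. A match is a description of these letters and not a measured binding site.

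In vehicle tumours the gamma cluster was the most abundant of the 3 and the alpha cluster was close to undetected. Summed over its members and scaled to 1000000 counts of a TMM-normalised library (CPM), the gamma cluster stood at 46.0, 46.3 and 53.5 CPM in the 3 vehicle libraries, a mean of 48.6 ± 4.25 (SD, n = 3). The beta cluster stood at 5.57, 5.25 and 5.87 CPM, with a mean of 5.56 ± 0.312 (SD, n = 3). The alpha cluster stood at 0.181, 0.420 and 0.233 CPM, which is 4 to 10 counts per library, with a mean of 0.278 ± 0.125 (SD, n = 3). The clusters thus ranked the same way in every vehicle library. Of all member counts, gamma made up 89.3 ± 0.456%, beta 10.2 ± 0.467% and alpha 0.516 ± 0.254% (SD, n = 3).

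Within the clusters the vehicle levels were compared per kilobase of exon that no other annotated gene of the locus covers on either strand. A median of 49.4% of alpha, 43.9% of gamma and 5.1% of beta exon bases are shared with another gene in this sense. Antisense genes and pseudogenes count among those genes, and the beta members do not overlap each other. How reads in shared exons were assigned is not given in the sources used here, and counts of gamma members ran from 0 to 502 in a library, so shared reads were not given to every member. On this scale PCDHGC3, the C-type gamma gene expressed widely outside the brain, was highest at 6.33 ± 0.760 CPM per kb (SD, n = 3). PCDHGB5 came next at 2.12 ± 0.393 CPM per kb, followed by PCDHGB4 at 0.905 ± 0.165 and PCDHB15 at 0.682 ± 0.0209, and these 4 levels lay apart by more than their SDs. The other gamma members ranged from 0.117 (PCDHGB7) to 0.507 (PCDHGB6) CPM per kb, and most neighbours in that order lay within 1 SD of each other. PCDHB13, PCDHB14 and PCDHB15, the beta members nearest the gamma cluster, stood at 0.104, 0.289 and 0.682 CPM per kb in that order, while the other 13 lay between 0.00385 and 0.0740. Of the 15 alpha members, 7 had 0 counts in all vehicle libraries, among them PCDHAC2, and a count of 0 allows up to 0.126 to 0.140 CPM in these libraries. The highest alpha level was that of PCDHA1, at 0.0256 ± 0.0115 CPM per kb (SD, n = 3).

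**Figure D1:**
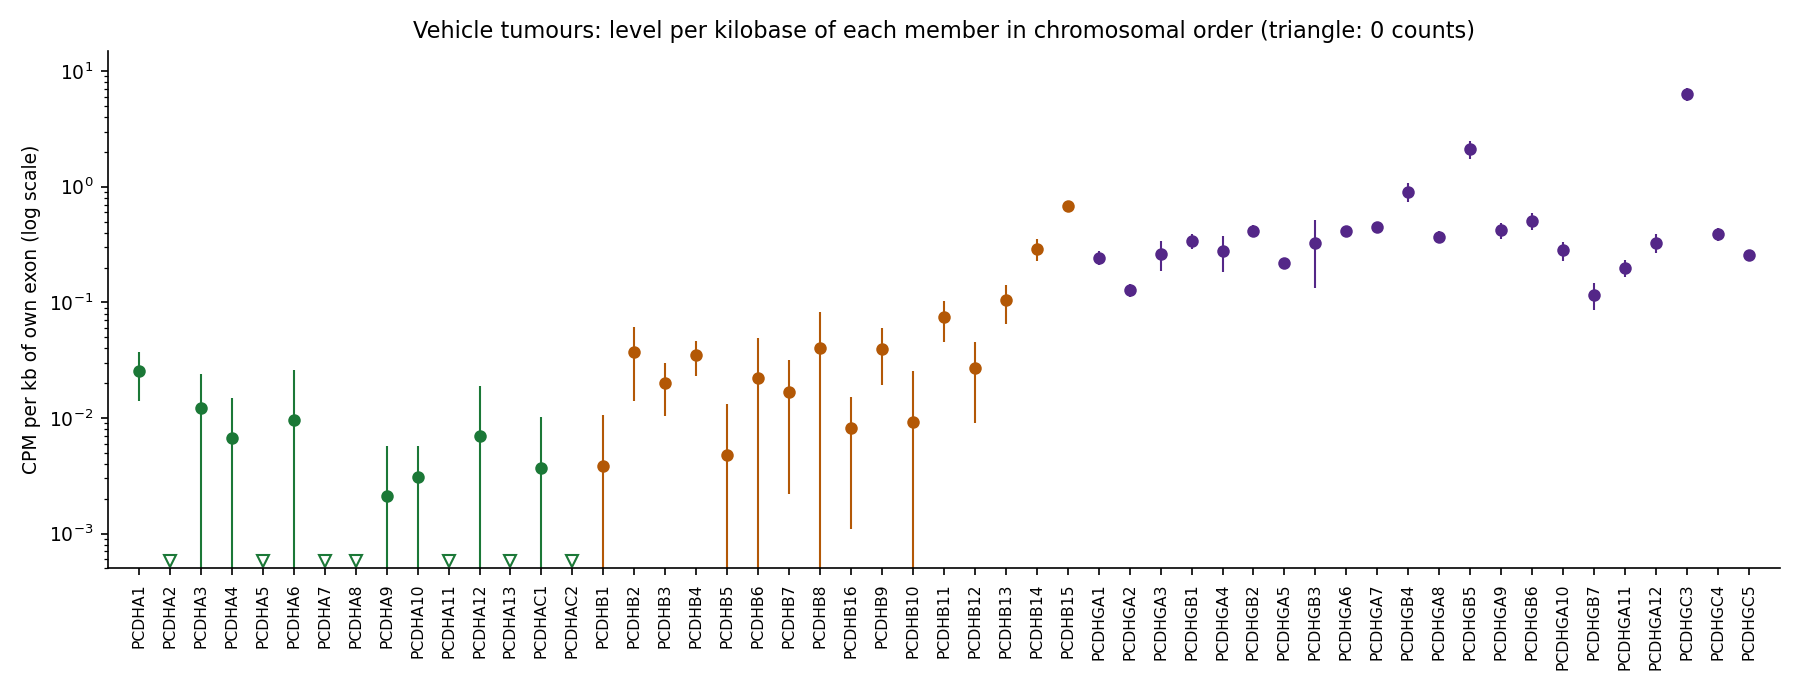
Level of each of the 53 members in vehicle tumours, in CPM per kilobase of unshared exon on a log axis, in chromosomal order (green alpha, orange beta, purple gamma). Points are means and bars 1 SD of 3 libraries, bars that reach below the axis are drawn to its edge, and triangles mark the 7 alpha members with 0 counts. PCDHGC3 is the highest member, and the beta members nearest the gamma cluster exceed the other beta members.

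Because of these levels, 29 of the 53 members passed the filter on low counts and were tested: 1 alpha member (PCDHA10), 6 beta members (PCDHB2, PCDHB9, PCDHB11, PCDHB13, PCDHB14 and PCDHB15) and all 22 gamma members. The filter asked for 10 counts at the median library size (0.46 CPM) in 3 libraries. PCDHA10, PCDHB2, PCDHB9, PCDHB11 and PCDHGB7 reached this in 0 vehicle libraries and passed only through treated groups, so the filter bound the direction of any call of theirs against vehicle, and such calls are given below beside their adjusted p without the filter. PCDHGB1 reached it in 3 vehicle and 0 CPI-0209 libraries. The 24 members left out are described by counts alone. An adjusted p without the filter is not on the same footing as the main one. That fit also moved genes well above the filter, and in both directions. With CPI-0209 the edgeR adjusted p of PCDHGC3 went from 0.0451 to 5.2e-07 and that of EZH2 from 0.0362 to 0.294. A smaller value without the filter is therefore not firmer support.

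With CPI-0209 the gamma cluster was lower and the alpha cluster higher than with vehicle, and the beta cluster was mixed. The gamma sum was 28.3, 23.3 and 24.6 CPM (25.4 ± 2.60, SD, n = 3), or 0.523 of the vehicle mean, and all 3 libraries lay below all vehicle libraries. With PCDHGC3 left out the ratio was 0.530, so the difference did not rest on its most abundant member. The alpha sum was 1.39, 0.862 and 2.01 CPM (1.42 ± 0.573, SD, n = 3), a ratio of 5.11, and all 3 libraries lay above the vehicle libraries on 15 to 25 counts each. Of these 25, 15 and 21 alpha counts, PCDHA10 gave 8, 3 and 10 and PCDHA4 gave 7, 3 and 6. The alpha ratio thus rested in large part on these 2 members. The beta sum was 8.08, 4.48 and 6.88 CPM (6.48 ± 1.83, SD, n = 3), a range that spans the vehicle values. Gamma members made up 76.6 ± 4.21% of member counts with CPI-0209, beta 19.2 ± 3.12% and alpha 4.23 ± 1.57% (SD, n = 3). The sums were not tested, since a sum over chosen members has no error of its own in the fit.

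Among single members, 2 of 29 were called higher with CPI-0209 against 22.3% of all 21958 genes tested, and 10 of 29 were called lower against 18.8% of all genes (edgeR quasi-likelihood test, Benjamini-Hochberg adjusted over all genes, threshold 0.05). PCDHA10 and PCDHB2 were the members called higher, and since both passed the filter only through treated groups, their count supports nothing. PCDHB14, PCDHB15 and 8 gamma members (PCDHGB1, PCDHGB3, PCDHGA6, PCDHGA7, PCDHGB4, PCDHGB5, PCDHGB6 and PCDHGC3) were those called lower. All 22 gamma members had a log2 fold change below 0, from -1.66 to -0.16 with a median of -0.85, beside a median of -0.02 over all genes. Of all 21958 genes, 11209 lay below 0. The gamma members share constant exons and were measured in the same libraries. Counts of them below or above 0, here and later, are therefore not counts of independent observations. Every CPI-0209 library lay below every vehicle library for 14 of the 29 members, 12 of them gamma members, beside 27.5% of all genes, and above every vehicle library for 2 of 29, beside 27.5%.

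**Figure D2:**
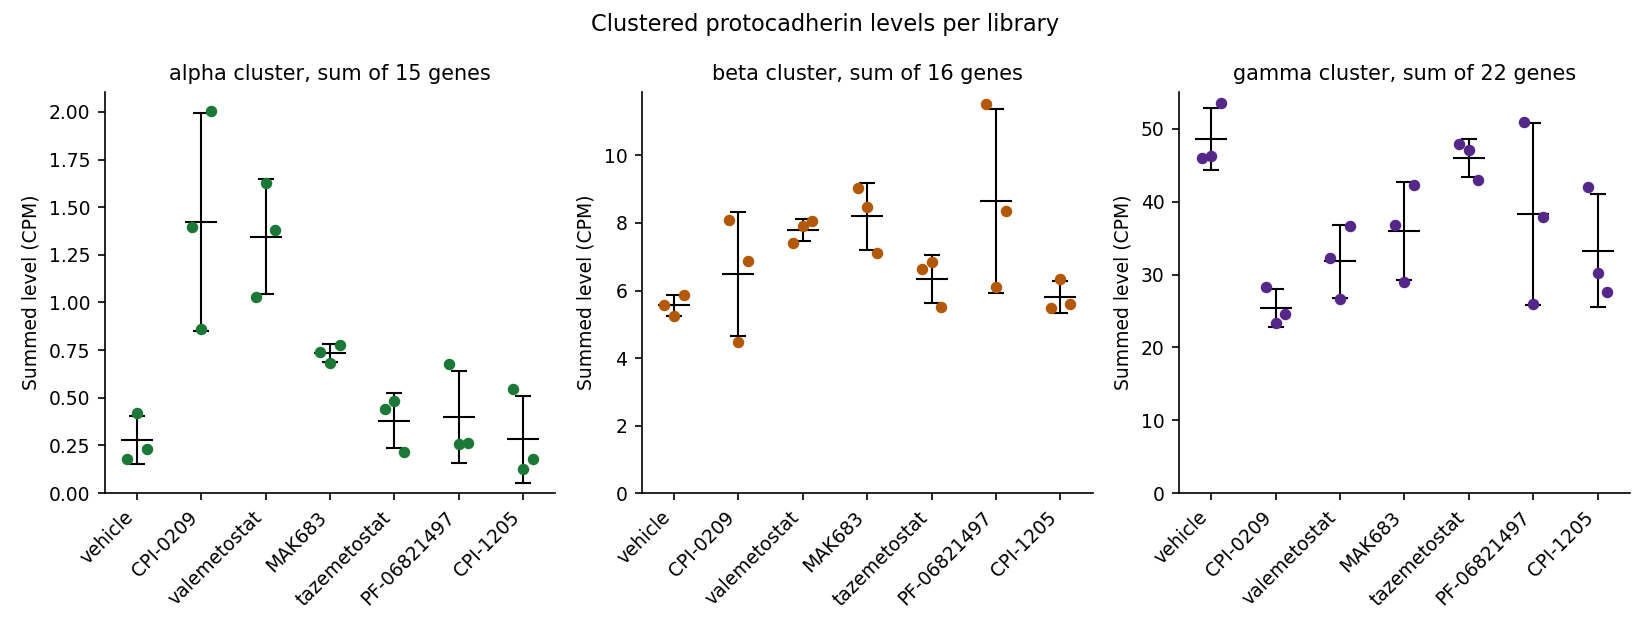
Summed level of the alpha, beta and gamma clusters in CPM for each library (points) in the 7 groups, with the group mean and 1 SD (black). The 3 CPI-0209 libraries lie between 23.3 and 28.3 in the gamma panel, below the vehicle libraries at 46.0 to 53.5, and between 0.862 and 2.01 in the alpha panel, above the vehicle libraries.

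PCDHGB4, of the B subfamily of gamma variable exons, was the gamma member with the smallest p in this comparison. Its level was 2.40, 1.76 and 2.52 CPM with vehicle and 1.00, 0.575 and 0.669 CPM with CPI-0209, so the groups did not overlap. It fell by 1.54 on the log2 scale (SE 0.31, edgeR adjusted p = 0.000434). Its neighbour PCDHGA7 had the largest fall of any member, from 1.45, 1.51 and 1.40 CPM to 0.446, 0.517 and 0.382 CPM, with every treated library far below every vehicle library. The log2 fold change of PCDHGA7 was -1.66 ± 0.46 (SE, edgeR adjusted p = 0.00636).

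PCDHGB5, the second gamma member by level, stood at 4.66, 5.54 and 6.75 CPM with vehicle and at 2.51, 2.47 and 2.68 CPM with CPI-0209. The groups did not overlap, and the log2 fold change was -1.15 ± 0.30 (SE, edgeR adjusted p = 0.00374). PCDHGA6 moved from 2.67, 2.22 and 2.24 CPM to 1.34, 0.862 and 0.764 CPM, again with no overlap (log2 fold change -1.23 ± 0.30, SE, edgeR adjusted p = 0.0021). PCDHGB6 moved from 2.76, 2.14 and 2.10 CPM to 1.84, 0.919 and 1.05 CPM (log2 fold change -0.85 ± 0.26, SE, edgeR adjusted p = 0.0107), a call lost without CPI-0209 library 2 (adjusted p = 0.0759). In PCDHGB3 the groups overlapped, at 0.770, 0.378 and 1.35 CPM with vehicle and 0.446, 0.115 and 0.287 CPM with CPI-0209, although the test called it (log2 fold change -1.52 ± 0.53, SE, edgeR adjusted p = 0.0248), and the call was lost without vehicle library 3 or CPI-0209 library 2 or 3 (adjusted p = 0.0526 to 0.189). PCDHGB1 was the remaining gamma member called, at -0.98 ± 0.38 (SE, edgeR adjusted p = 0.0434), and leaving out any library but vehicle library 1 ended that call (adjusted p = 0.07 to 0.121), as did the test without the filter (adjusted p = 0.131). The calls of PCDHGA6, PCDHGA7, PCDHGB4 and PCDHGB5 held under all 20 other settings tried.

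PCDHGC3 gave the most counts of any member, 414 to 502 per vehicle library, but had one of the weaker calls. It stood at 18.7, 19.6 and 23.4 CPM with vehicle and at 11.3, 11.0 and 9.27 CPM with CPI-0209, without overlap. Its log2 fold change was -0.96 ± 0.37 (SE, edgeR adjusted p = 0.0451), and the call was lost under 11 of 20 other settings, among them leaving out any 1 of the 6 libraries (adjusted p = 0.0619 to 0.139), while the direction held in all 20. Without the filter on low counts its edgeR adjusted p was 5.2e-07, in a fit that is not on the same footing. The other C-type gamma members, PCDHGC4 and PCDHGC5, had log2 fold changes of -0.55 ± 0.45 and -0.84 ± 0.43 (SE) and were not called (edgeR adjusted p = 0.341 and 0.123).

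In the beta cluster PCDHB2 and the pair PCDHB14 and PCDHB15 moved in opposite directions with CPI-0209. PCDHB2 had 1, 5 and 3 counts in the vehicle libraries and 27, 15 and 11 counts with CPI-0209, which is 0.0453, 0.210 and 0.140 CPM against 1.505, 0.862 and 1.05 CPM. The groups did not overlap, and the log2 fold change was 3.05 ± 0.47 (SE, edgeR adjusted p = 2.71e-05) in a test that PCDHB2 entered only through treated groups. Without the filter it was 3.02 (edgeR adjusted p = 3.05e-07). PCDHB14 moved from 1.54, 1.01 and 1.49 CPM to 0.780, 0.517 and 0.764 CPM (log2 fold change -0.97 ± 0.31, SE, edgeR adjusted p = 0.0151), and this call was lost without vehicle library 1 or 3 or CPI-0209 library 2 (adjusted p = 0.0514 to 0.0837). PCDHB15 moved from 2.49, 2.52 and 2.38 CPM to 2.01, 1.21 and 0.669 CPM (log2 fold change -0.86 ± 0.30, SE, edgeR adjusted p = 0.0256), with a spread in the treated group that the vehicle group did not have. Its call was lost without vehicle library 2 or 3 or CPI-0209 library 2 or 3 (adjusted p = 0.0522 to 0.118). The median over the 6 tested beta members was 0.32, with 3 above and 3 below 0, and this median turned to -0.34 when skeletal muscle markers were a covariate. With PCDHB14 and PCDHB15 left out, an omission chosen after their values were seen, the beta sum was 5.30, 2.76 and 5.45 CPM with CPI-0209 against 1.54, 1.72 and 2.00 CPM with vehicle. PCDHB1, the beta member nearest the alpha cluster, was also chosen after its values were seen: it was not tested and had 0, 0 and 2 counts with vehicle and 8, 3 and 7 with CPI-0209 (ratio 13.2, 95% counting interval 3.17 to 118).

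PCDHA10, a member of the alpha cluster, had 0, 1 and 1 counts with vehicle and 8, 3 and 10 with CPI-0209. The ratio of its group levels was 15.5, with a 95% counting interval from 3.78 to 136, which covers counting error only. Its log2 fold change among the filtered genes was 3.78 ± 1.06 (SE), and without the filter, which had bound its direction, it was 3.74 (edgeR adjusted p = 0.000606). PCDHA4, not tested, had 1, 4 and 0 counts with vehicle and 7, 3 and 6 with CPI-0209. PCDHA1 had 2, 1 and 1 against 3, 3 and 1 counts, and PCDHAC1 had 1, 0 and 0 against 0, 1 and 2, so neither is separated by its counts. PCDHAC2 was at 0 counts in both groups, and its only group with counts in every library was valemetostat (1, 2 and 4).

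Markers of other cell types moved in both directions with the CPI-0209 group, and their part in these results was not tested except by the covariate below. The 8 endothelial markers summed to 44.0 to 60.2 CPM with CPI-0209 against 13.2 to 16.2 with vehicle, although CDH5, the defining junction cadherin of endothelium, was lower (0.804 ± 0.224 against 1.88 ± 0.705 CPM, SD, n = 3; edgeR adjusted p = 0.00734, and 0.0606 without vehicle library 2). Of 7 endothelial markers tested, 3 were called higher and 2 lower. This count and those of the marker lists that follow stand beside 22.3% of all genes called higher and 18.8% called lower. The 9 fibroblast markers summed to 1684 to 4325 against 1271 to 2043 CPM, with 5 called higher and 2 lower (FBN1 at a log2 fold change of -2.07 and COL1A2 at -0.95). The 12 nerve and Schwann cell markers summed to 125 to 140 against 165 to 209 CPM, with 1 of the 12 at 0 counts in both groups. Of the 9 tested nerve markers 4 were called higher (among them TUBB3 at 2.71 and PMP22 at 3.00) and 3 lower (among them MBP at -0.96), and their median log2 fold change was 0.93. The 10 urothelial carcinoma markers summed to 5685 to 6580 against 8244 to 8508 CPM, with 1 called higher and 5 lower. No urothelial marker was at 0 in any group. The 12 skeletal muscle markers summed to 422 to 1838 CPM with CPI-0209 (median library 530.3) against 611 to 660 with vehicle, with 4 called higher and 1, TNNT3, lower (log2 fold change -1.02). Taken as their median log2 CPM they stood at 4.82, 3.55 and 7.23 in the 3 CPI-0209 libraries, in the same order as the alpha sums given above, and -1.38 to 4.05 with vehicle. The 2 orders also matched with MAK683 and PF-06821497, but not with vehicle, valemetostat, tazemetostat or CPI-1205. In the vehicle libraries the muscle median was 2.65, -1.38 and 4.05, while the alpha sum was 0.181, 0.420 and 0.233 CPM. CPI-0209 library 3, the highest of its group in muscle median, was also the shallowest of all 21 libraries. With this median as a covariate PCDHB2 kept a log2 fold change of 3.29 (adjusted p = 4.99e-05), PCDHA10 stood at 3.06 (adjusted p = 0.0508), and the gamma median was -0.99 with 22 of 22 members below 0. In such bulk samples, fewer cells of a type and less RNA per cell cannot be told apart.

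With valemetostat the gamma sum was below, and the alpha and beta sums were above, those of the vehicle libraries. Of 29 members, 3 were called higher (15% of all genes) and 4 lower (12.2% of all genes) against the same vehicle libraries, and the 3 called higher had passed the filter only through treated groups. The gamma sum was 32.2, 26.6 and 36.6 CPM (31.8 ± 5.02, SD, n = 3), all below the vehicle libraries, and all 22 gamma log2 fold changes were below 0 with a median of -0.63 beside -0.01 over all genes. Members not overlapping vehicle were 12 of 29 on the lower side, all gamma (23.7% of all genes), and 3 on the higher side (23.3%). PCDHGB4 was at 1.26, 0.938 and 0.993 CPM, below every vehicle library (log2 fold change -1.06 ± 0.29, SE, edgeR adjusted p = 0.00846). PCDHGA8, PCDHGA10 and PCDHGA12, of the A subfamily of gamma variable exons, were the other members called lower, with log2 fold changes of -1.04, -0.99 and -1.04. None of these 3 was called with CPI-0209, where they stood at -0.56, -0.59 and -0.90, and the difference between the compounds was not called. Each of the 3 calls was lost when any 1 of several libraries was left out: for PCDHGA8 vehicle 1 or 2 or valemetostat 1 or 3, for PCDHGA10 vehicle 2 or 3 or valemetostat 3, and for PCDHGA12 any vehicle library or valemetostat 1 or 3 (adjusted p = 0.0566 to 0.17).

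The alpha and beta members called higher with valemetostat were PCDHA10, PCDHB2 and PCDHB9. PCDHB2 stood at 0.980, 0.938 and 1.27 CPM, above the vehicle libraries (log2 fold change 2.94 ± 0.47, SE, edgeR adjusted p = 6.51e-05, and 7.8e-07 without the filter that bound its direction). PCDHB9 moved from 0.0905, 0.252 and 0.140 CPM with vehicle to 0.560, 0.740 and 0.662 CPM without overlap (log2 fold change 1.97 ± 0.65, SE, edgeR adjusted p = 0.0285, and 0.00764 without the filter that bound its direction), a call lost without vehicle library 1 or 3 or valemetostat library 2 or 3 (adjusted p = 0.0581 to 0.107). With CPI-0209 it stood at 0.669, 0.230 and 0.764 CPM, which overlapped vehicle (log2 fold change 1.68 ± 0.70, SE, edgeR adjusted p = 0.0577). PCDHA10 had 1, 13 and 6 counts with valemetostat, and its call (log2 fold change 3.26 ± 1.08, SE, edgeR adjusted p = 0.0284, and 0.00704 without the filter that bound its direction) was lost without any 1 vehicle library or without valemetostat library 2 or 3 (adjusted p = 0.0539 to 0.184). The alpha sum with valemetostat was 1.03, 1.63 and 1.38 CPM and the beta sum 7.42, 7.90 and 8.05 CPM, each above all vehicle libraries. PCDHB14 and PCDHB15 were not called with valemetostat, at log2 fold changes of -0.16 ± 0.28 and -0.10 ± 0.28 (SE).

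**Figure D3:**
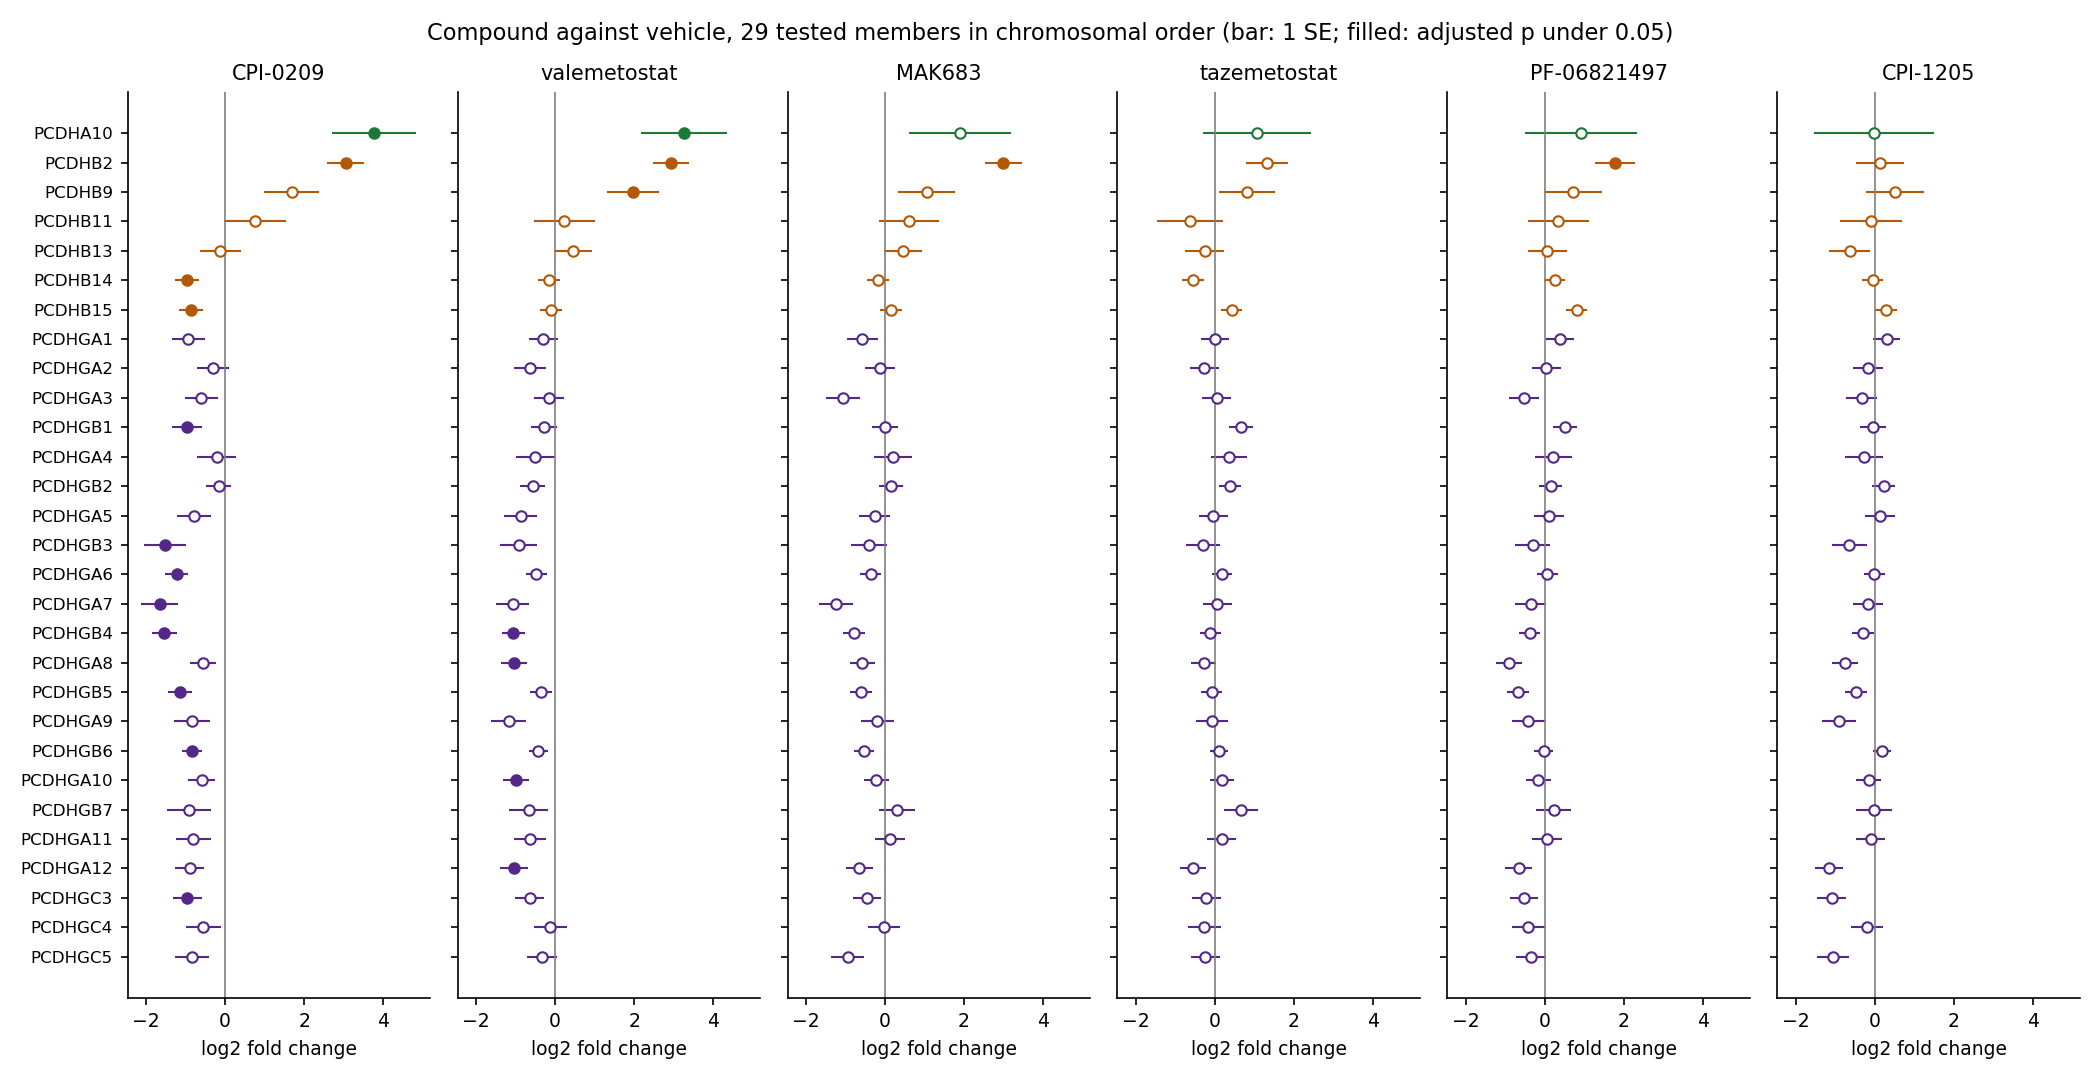
Log2 fold change against vehicle of the 29 tested members in chromosomal order for the 6 compounds, with 1 SE as bars; filled points have an edgeR adjusted p under 0.05 and colours mark the cluster (green alpha, orange beta, purple gamma). All 22 gamma points lie left of 0 with CPI-0209 and valemetostat, and PCDHB2 lies right of 0 in every panel.

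With MAK683 only PCDHB2 was called among the 29 members, as higher (10.4% of all genes were called higher), and 0 were called lower in the edgeR test (5.17% of all genes; 6 gamma members had an unadjusted p under 0.05, and DESeq2 called 1 member lower). PCDHB2 stood at 1.298, 1.22 and 0.777 CPM, above all vehicle libraries, and its log2 fold change was 2.99 ± 0.47 (SE, edgeR adjusted p = 0.0001, and 9.1e-07 without the filter that bound its direction). The gamma sum was 36.9, 28.9 and 42.2 CPM (36.0 ± 6.70, SD, n = 3), below the vehicle libraries in all 3, and 18 of 22 gamma log2 fold changes were below 0 (median -0.38; 16 of 22 with upper-quartile scaling). Members not overlapping vehicle were 8 of 29 on the lower side, all gamma (16.8% of all genes), and 2 on the higher side (19.2%). PCDHGA7 stood at 0.680, 0.391 and 0.777 CPM, below the vehicle libraries, and narrowly missed the threshold (log2 fold change -1.25 ± 0.43, SE, edgeR adjusted p = 0.0526). PCDHGB4 was at 1.36, 1.22 and 1.28 CPM, also below them (log2 fold change -0.79 ± 0.28, SE, edgeR adjusted p = 0.0649). The alpha sum was 0.742, 0.685 and 0.777 CPM on 12 to 14 counts, above the vehicle libraries, and the beta sum was 9.03, 8.46 and 7.10 CPM, also above them.

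With PF-06821497 PCDHB2 was again the only member called, as higher (5.96% of all genes), and 0 of 29 were called lower by edgeR (3.59% of all genes; 2 gamma members had an unadjusted p under 0.05 and limma-voom called 1 lower). PCDHB2 stood at 0.260, 0.602 and 0.527 CPM, just above the vehicle libraries (log2 fold change 1.77 ± 0.51, SE, edgeR adjusted p = 0.0293, and 0.0427 without the filter that bound its direction), and the call was lost when vehicle library 1 or 3 or PF-06821497 library 2 or 3 was left out (adjusted p = 0.0929 to 0.131) or when the libraries with a resubmission mark in their count columns were (adjusted p = 0.103). PCDHB15, lower with CPI-0209, stood at 5.24, 3.31 and 4.43 CPM, above every vehicle library, without passing the threshold (log2 fold change 0.81 ± 0.27, SE, edgeR adjusted p = 0.0603). The gamma sum was 51.0, 26.0 and 37.9 CPM (38.3 ± 12.5, SD, n = 3) and overlapped vehicle, with library 2 lowest. That library held PCDHGC3 at 5.80 CPM against 21.7 and 15.6 in the others. Members not overlapping vehicle were 2 of 29 on the lower side (13.2% of all genes) and 3 on the higher side (14%). The beta sum was 11.5, 6.10 and 8.34 CPM, above all vehicle libraries.

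Tazemetostat and CPI-1205 gave no called member, and none of the 21958 genes passed the edgeR test with either (0% called). At an unadjusted p under 0.05 tazemetostat had 2 of 29 members and 647 genes, and CPI-1205 had 5 members and 2713 genes. DESeq2 and limma-voom called 0 members with either compound. With tazemetostat the gamma sum was 47.9, 47.1 and 43.0 CPM (46.0 ± 2.60, SD, n = 3), and 11 of 22 gamma members lay below 0. Members not overlapping vehicle with tazemetostat were 5 of 29 on the higher side (6.03% of all genes) and 2 on the lower side (4.85%). PCDHB2 with tazemetostat was at 0.320, 0.483 and 0.216 CPM, above the vehicle libraries but close to their highest value (log2 fold change 1.32 ± 0.52, SE, edgeR adjusted p = 1). With CPI-1205 PCDHB2 was at 0.182, 0.0825 and 0.179 CPM, within the vehicle range (log2 fold change 0.13 ± 0.61, SE, edgeR adjusted p = 0.952).

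The gamma sum with CPI-1205 was 42.1, 30.2 and 27.6 CPM (33.3 ± 7.70, SD, n = 3), below vehicle in all 3 libraries, and members not overlapping vehicle were 5 of 29 on the lower side (10.7% of all genes) and 0 on the higher side (9.32%). PCDHGC3 stood at 15.7, 8.05 and 5.19 CPM, below every vehicle library (log2 fold change -1.10 ± 0.37, SE, edgeR adjusted p = 0.303). Its share of the gamma counts was 37.3, 26.6 and 18.8% in these libraries against 40.7 to 43.7% with vehicle. Libraries 2 and 3, the lower values, carry a resubmission mark in their titles and in their count columns. The third mark is on PF-06821497 library 1, the highest of its group, by title, but on library 2, the lowest of its group, by count column, so which of them was resubmitted is uncertain. The 3 libraries marked by count column held the lowest PCDHGC3 values of all 21 (8.05, 5.19 and 5.80 CPM), and the part of the mark in the PCDHGC3 values was not tested. Without PCDHGC3 the CPI-1205 gamma sum was 0.844 of vehicle, against 0.685 with it.

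**Figure D4:**
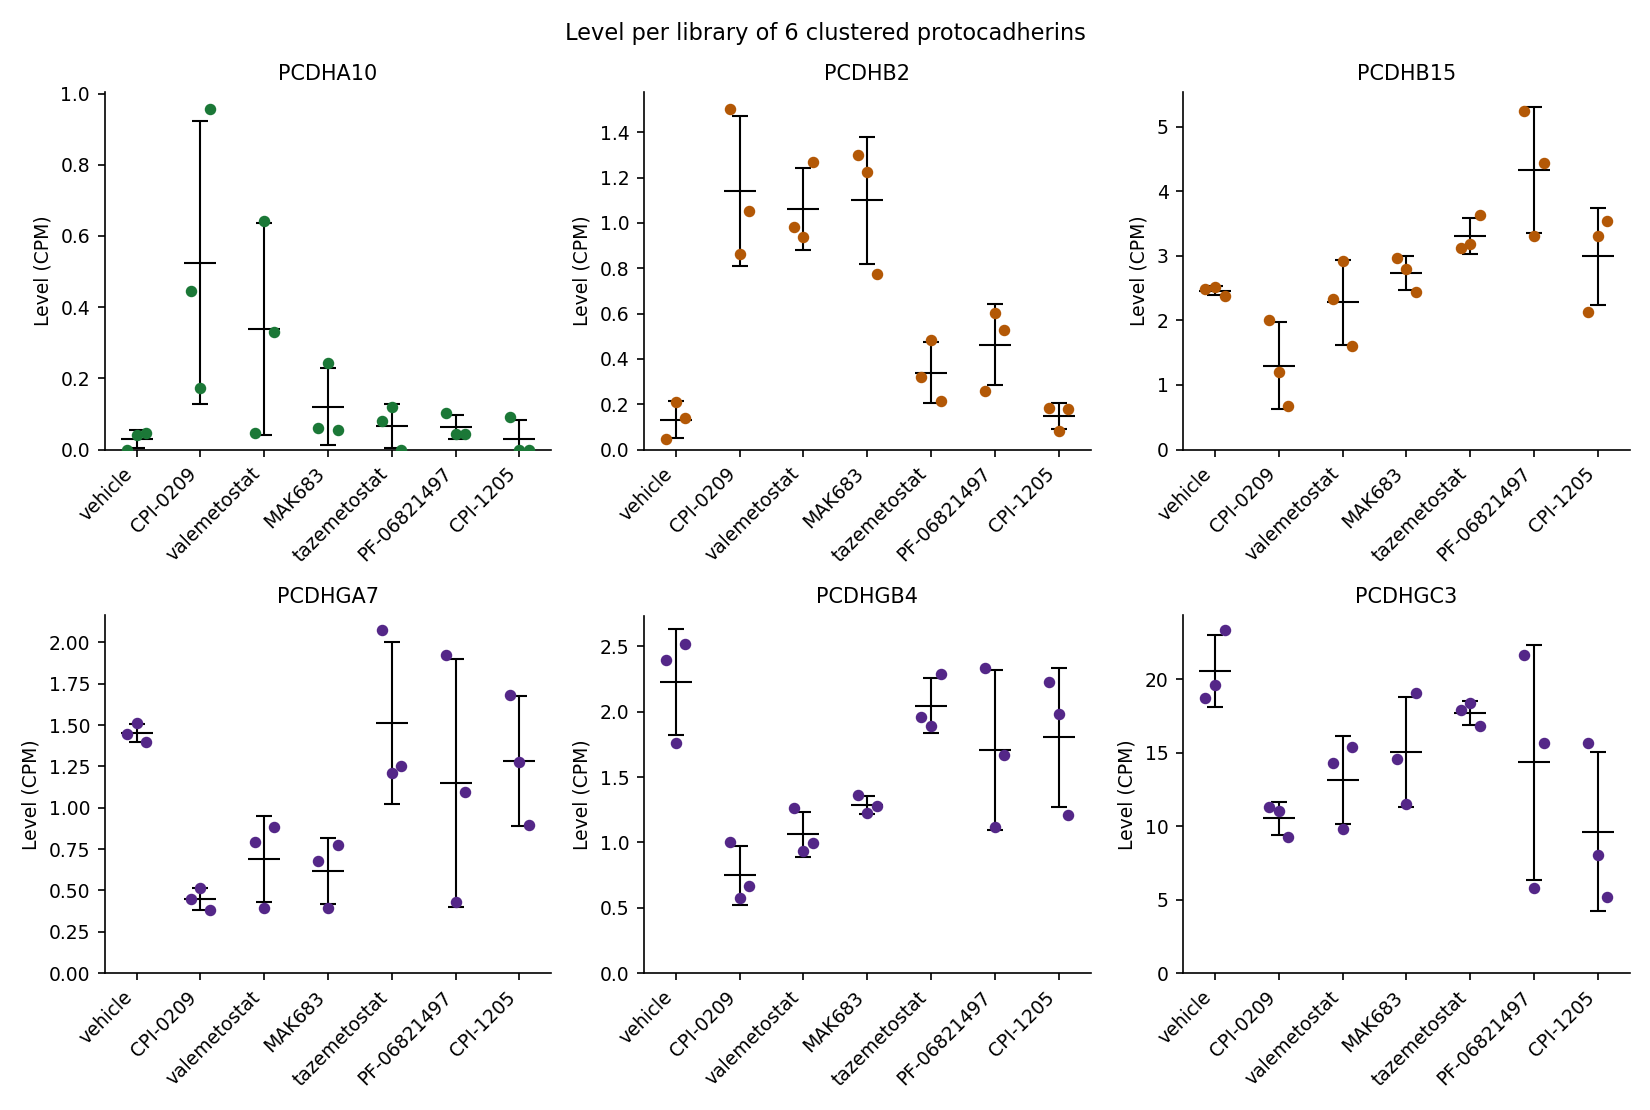
Level of PCDHA10, PCDHB2, PCDHB15, PCDHGA7, PCDHGB4 and PCDHGC3 in CPM for each library (points) in the 7 groups, with the mean and 1 SD (black); each panel has its own axis from 0. PCDHB2 is at 0.777 to 1.505 with CPI-0209, valemetostat and MAK683 and at most 0.210 with vehicle, while PCDHGB4 is lowest with CPI-0209.

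The compounds were also compared with each other, at the same dose, schedule and time. In the test among the 6 compounds 9 of 29 members were called, beside 32.3% of all genes, and with vehicle as a further group 10 of 29 were called, beside 35.8%. The 5 comparisons with CPI-0209 share its 3 libraries. Valemetostat differed from CPI-0209 in 0 of 29 members (0% of all genes; 4 members and 2708 genes at an unadjusted p under 0.05). For PCDHB2 the log2 difference, valemetostat minus CPI-0209, was -0.12 with a 95% interval from -0.87 to 0.64, and for PCDHGB4 it was 0.49 with an interval from -0.20 to 1.18. These intervals leave room for differences in either direction.

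MAK683 was higher than CPI-0209 in 1 member, PCDHB15 (4.03% of all genes), and lower in 0 (5.05%). PCDHB15 was at 2.97, 2.79 and 2.44 CPM with MAK683, above the CPI-0209 libraries (log2 difference 1.01 ± 0.30, SE, edgeR adjusted p = 0.039), and the call was lost when any of these 6 libraries but CPI-0209 library 1 was left out (adjusted p = 0.0782 to 0.164). For PCDHB2 the log2 difference was -0.06 with a 95% interval from -0.82 to 0.70.

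Tazemetostat was higher than CPI-0209 in 8 members (16.7% of all genes) and lower in 2 (20.3%). The 8 were PCDHB15 and 7 gamma members, and all 22 gamma members were above 0 with a median log2 difference of 0.77. Of the 7, PCDHGB7 and PCDHGB1 each reached the filter's minimum in 3 tazemetostat and 0 CPI-0209 libraries. Without the filter PCDHGB7 was not called (edgeR adjusted p = 0.0543) and PCDHGB1 was (edgeR adjusted p = 0.00274). PCDHGB4 was 1.42 ± 0.31 higher on the log2 scale (SE, edgeR adjusted p = 0.00114), at 1.96, 1.89 and 2.29 CPM. The members lower with tazemetostat were PCDHB2 (log2 difference -1.73 ± 0.40, SE, edgeR adjusted p = 0.002, and 0.00191 without the filter) and PCDHA10 (-2.72 ± 0.91, SE, edgeR adjusted p = 0.0231, and 0.00712 without the filter). PCDHB2 reached the filter's minimum in 3 CPI-0209, 1 tazemetostat and 0 vehicle libraries. PCDHA10 passed the filter through 2 CPI-0209 libraries and 1 valemetostat library. The filter thus favoured lower calls of both, and the count of 2 supports nothing. The PCDHA10 call was lost without CPI-0209 library 3 or tazemetostat library 1 or 3 (edgeR adjusted p = 0.0539 to 0.124). It was also lost with the skeletal muscle covariate (-2.15, edgeR adjusted p = 0.108).

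PF-06821497 and CPI-1205 each were higher than CPI-0209 in 7 members (8.66% and 15.3% of all genes) and lower in 2 (13.9% and 19.9%). In both comparisons the 2 lower members were PCDHA10 and PCDHB2. PCDHA10 passed the filter only through 2 CPI-0209 libraries and 1 valemetostat library. PCDHB2 reached the filter's minimum in 3 CPI-0209, 2 PF-06821497 and 0 CPI-1205 libraries. The filter thus favoured lower calls of both, and the count of 2 supports nothing. PCDHB15 was higher with PF-06821497 than with CPI-0209 by 1.67 ± 0.29 on the log2 scale (SE, edgeR adjusted p = 0.000325). That call held under all 20 other settings, as did those of PCDHGB1 and PCDHGA6. PCDHGB1 reached the filter's minimum in 3 PF-06821497 and 0 CPI-0209 libraries, and its edgeR adjusted p without the filter was 0.0138. The other PF-06821497 calls were lost under 2 to 10 settings, most often PCDHA10 (10 of 18) and PCDHGB6 (9 of 20). With CPI-1205 the calls of PCDHB2 and PCDHGB4 held under all 20. The others were lost under 1 to 9 settings, PCDHB14 most often, and some of these settings left only CPI-1205 library 1. PCDHB2 with CPI-1205 had a log2 difference from CPI-0209 of -2.92 ± 0.46 (SE, edgeR adjusted p = 4.66e-05, and 7.27e-07 without the filter, which it had passed through groups where it was higher). PCDHGC3 with CPI-1205 was not distinguished from its level with CPI-0209 (log2 difference -0.14, 95% interval -0.92 to 0.65).

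Of the genes next to the clusters, ZMAT2, TAF7 and HDAC3 were not called with CPI-0209 (log2 fold changes -0.26, -0.19 and -0.20, edgeR adjusted p = 0.0596, 0.11 and 0.132). DIAPH1, a formin gene beyond the gamma cluster, was lower with CPI-0209 at 240 ± 16.5 against 378 ± 45.3 CPM (SD, n = 3; log2 fold change -0.66 ± 0.15, SE, edgeR adjusted p = 0.00159). SLC25A2, which lies between the beta and gamma clusters, was near 0 in both groups. The 13 antisense genes annotated in the span had 9 counts in all 21 libraries together, so few reads were assigned to them, and the strand setting of the counting is not given in the sources used here. Several of them, such as AC005609.2 and AC244517.4, have 0 exon bases that no other gene covers. Their low counts therefore also depend on how reads in shared exons were assigned, which was not tested.

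Other protocadherins outside the clusters were a mixed group. Of 12 non-clustered genes 7 were tested, and with CPI-0209 4 were higher and 1 lower (median log2 fold change 1.23), beside 22.3% and 18.8% of all genes. With valemetostat 2 were higher and 2 lower (15% and 12.2% of all genes), with MAK683 1 and 1 (10.4% and 5.17%), and with PF-06821497 1 and 2 (5.96% and 3.59%). PCDH9 rose with CPI-0209 from 1.49 ± 0.245 to 3.48 ± 1.37 CPM (SD, n = 3; log2 fold change 1.23 ± 0.30, SE, edgeR adjusted p = 0.00212), and PCDH18 fell from 3.49 ± 1.29 to 0.984 ± 0.731 CPM (log2 fold change -1.94 ± 0.42, SE, edgeR adjusted p = 0.000854).

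Among the 11 genes of CTCF and cohesin, which bind clustered protocadherin promoters and hold the chromatin loops of the locus, 4 were lower with CPI-0209 (18.8% of all genes) and 1 with valemetostat (12.2%), with 0 called for the other compounds. RAD21, a cohesin subunit, fell from 354 ± 5.57 to 221 ± 34.0 CPM (SD, n = 3) with CPI-0209 (log2 fold change -0.68 ± 0.14, SE, edgeR adjusted p = 0.000557). CTCF itself was not called, at 81.8 ± 6.70 CPM with vehicle and 73.3 ± 9.51 CPM with CPI-0209 (SD, n = 3; edgeR adjusted p = 0.344). Of 15 silencing and DNA methylation genes, 1 was higher and 5 were lower with CPI-0209, beside 22.3% and 18.8% of all genes. DNMT3B, a DNA methyltransferase, rose by 0.85 ± 0.14 (SE, edgeR adjusted p = 5.45e-05) on the log2 scale, and TET2, an enzyme that oxidises methylated cytosine, changed by -1.41 ± 0.25 (SE, edgeR adjusted p = 0.00013). SMCHD1, which represses the clusters in other tissues, was not called (edgeR adjusted p = 0.177).

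Of the 6 core subunits of Polycomb repressive complex 2, 2 were higher and 2 lower with CPI-0209, beside 22.3% and 18.8% of all genes. EZH2 was called higher, from 72.6 ± 1.12 to 87.7 ± 10.1 CPM (SD, n = 3; log2 fold change 0.27 ± 0.10, SE, edgeR adjusted p = 0.0362), a call lost without vehicle library 1 or 2 or CPI-0209 library 3 (adjusted p = 0.095 to 0.216). The call was lost under 6 of 20 other settings in all. Among them were the test without the low-count filter (edgeR adjusted p = 0.294) and the skeletal muscle covariate (edgeR adjusted p = 0.233). Of 14 partners and proteases of protocadherins, 2 were higher and 5 lower with CPI-0209, beside the same shares of all genes. RET, a receptor kinase that associates with protocadherins, was among the higher ones, at 1.22 ± 0.290 against 0.175 ± 0.0795 CPM (SD, n = 3). Its log2 fold change was 2.73 ± 0.42 (SE, edgeR adjusted p = 2.81e-05, and 2.82e-06 without the filter). RET was at 0.181, 0.252 and 0.0932 CPM with vehicle, under the filter's 0.46 CPM, so it passed only through treated groups. The filter thus bound the direction of its call, and its place in the count of 2 supports nothing.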

How the data were processed

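RNA-seq of 21 libraries from HT1376 xenograft tumours was analysed. The authors deposited raw counts for each Ensembl gene; STAR 2.7.3a, RSEM 1.3.1 and hg38 are listed in the submitters' processing notes. No source used here gives the counting program, annotation or strand setting. Symbols and spans came from GENCODE 29, in which all 53 members had the same start and end as in the files. Library totals ran from 9725690 to 25771778 counts, so 3 counts, the limit that a count of 0 allows, were worth 0.120 to 0.287 CPM.

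Groups follow the labelled treatment. Members and gene lists were chosen with earlier results of these data known. The main test was edgeR 4.0.16 under R 4.3.3 (filterByExpr, 21958 genes; TMM; robust quasi-likelihood fit of 7 group terms over all 21 libraries; two-sided; Benjamini-Hochberg over all genes tested, threshold 0.05), also run on simulated data. The simulation changed few genes, none as low with vehicle as PCDHA10 or PCDHB2. It therefore covers neither such low members nor changes as widespread as those with CPI-0209. Alternatives used limma 3.58.1 (voom), DESeq2 1.42.0, other filters and scalings, a 1.5-fold threshold, fewer libraries, a replicate block and terms for resubmission marks or muscle markers.

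Members named with values were the C-type members and, per cluster, the 3 with the highest level, the smallest p over the 7 groups and the largest called rises and falls against vehicle (at least 0.5 CPM in the higher group). Other members called in a comparison, and those at the ends of a range, were named after their values were seen. From each list, CTCF, SMCHD1, EZH2 and up to 4 genes with the smallest p could be named, and CDH5 was one of these.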

Additional observations from a re-analysis of the deposited data

How the results depend on the processing

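Of 353 counts of called members recomputed under other settings, apart from leaving out single libraries, 286 stayed within 1.5 times the main count, and none of 59 calls of single genes, recomputed under 1163 settings in all, reversed its direction (978 kept the call and 185 lost it). The cause of each change below was not tested, beyond what a stricter threshold or fewer genes or libraries imply. In what follows each pair of numbers counts members called higher and lower against vehicle, or against CPI-0209 where stated. The counts against vehicle are 2 and 10 with CPI-0209, 3 and 4 with valemetostat, 1 and 0 with MAK683, and 1 and 0 with PF-06821497.

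Without the low-count filter 4 members were higher with CPI-0209, 2 were higher and 1 lower with MAK683, 2 were higher with PF-06821497 and 1 was lower with CPI-1205; against CPI-0209, 1 was higher with valemetostat, 1 lower with MAK683, and 4 lower with tazemetostat and with PF-06821497. With at least 1 CPM in 3 libraries 1 was higher with CPI-0209, 1 with valemetostat and 2 with PF-06821497, and 1 was lower than CPI-0209 with tazemetostat, PF-06821497 and CPI-1205. Upper-quartile scaling gave 2 lower with valemetostat, 2 higher with PF-06821497 and 0 higher for MAK683 against CPI-0209. That scaling moved the median of all genes with CPI-0209 from -0.02 to 0.12 and the share of its calls that were higher from 54.2% to 67.5% (valemetostat 55.2% to 67.2%), while the gamma medians were -0.71 and -0.53 with 22 of 22 below 0 in both. DESeq2 gave 1 lower with MAK683 and 2 higher with PF-06821497. Limma-voom gave 1 lower with PF-06821497, 0 higher for MAK683 against CPI-0209 and 1 lower for PF-06821497 against CPI-0209. Against a 1.5-fold change 4 were lower with CPI-0209, 1 higher and 0 lower with valemetostat, and 0 higher with PF-06821497; against CPI-0209, 0 were higher with MAK683, 5 higher and 1 lower with tazemetostat, 3 higher and 0 lower with PF-06821497, and 2 higher with CPI-1205.

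The resubmission marks of PF-06821497 differ between titles (library 1) and count columns (library 2), as do its replicate numbers, so these alternatives and the replicate block are uncertain for that group. Leaving out marked libraries, by title or by count column, kept only library 1 of CPI-1205. No counts are therefore given for CPI-1205 in those settings, although the totals above include them. Leaving out the libraries marked by title gave 5 higher with CPI-0209, 2 lower with MAK683 and 2 lower with PF-06821497. A term for the libraries marked by title gave 0 lower for PF-06821497, and 4 higher and 1 lower for CPI-1205, against CPI-0209. In alternatives chosen after seeing the data, leaving out the libraries marked by count column gave 5 higher with CPI-0209, and a term for them gave 0 higher with PF-06821497. Both gave 7 lower with valemetostat, 3 lower with MAK683, and 1 lower than CPI-0209 with PF-06821497. The term also gave 1 lower than CPI-0209 with CPI-1205. The skeletal muscle covariate gave 1 higher with CPI-0209, 7 lower with valemetostat and 3 lower with MAK683, and against CPI-0209 3 higher with MAK683 and 1 lower with tazemetostat, PF-06821497 and CPI-1205. A fit of only the 2 groups compared gave 1 higher with CPI-0209 and 2 lower with MAK683; against CPI-0209 it gave 0 higher with MAK683, 1 lower with tazemetostat, 3 higher and 0 lower with PF-06821497, and 4 higher and 1 lower with CPI-1205.

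The replicate block left CPI-0209 at 2 and 10 and gave 1 lower with MAK683 and 0 higher for MAK683 against CPI-0209; it moved no other count of members by over 1.5 times. The numbers did not pair the samples: of 63 same-numbered pairs 15 had a correlation of deviations over 0.1, and 4 of 21 libraries were closest to their own number.

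With single libraries left out, CPI-0209 gave 2 to 4 higher and 4 to 9 lower; CPI-0209 library 2 left out gave 4 higher and 4 lower, and vehicle library 3 left out gave 5 lower. Valemetostat gave 1 to 3 higher and 1 to 5 lower, with 1 lower without vehicle library 2 or valemetostat library 3, 2 lower without vehicle library 1 or 3 or valemetostat library 1, and 1 higher without vehicle library 1 or 3 or valemetostat library 3. PF-06821497 gave 0 to 1 higher (0 without vehicle library 1 or 3 or PF-06821497 library 3) and 0 to 1 lower (1 without PF-06821497 library 1). Against CPI-0209, MAK683 gave 0 to 2 higher (2 without CPI-0209 library 1, and 0 without any other of the 6 libraries), tazemetostat gave 7 to 10 higher and 1 to 3 lower (1 without CPI-0209 library 3 or tazemetostat library 3), PF-06821497 gave 4 to 7 higher (4 without CPI-0209 library 2) and 0 to 3 lower (0 without CPI-0209 library 1, and 1 without CPI-0209 library 3 or PF-06821497 library 2 or 3), and CPI-1205 gave 5 to 7 higher and 2 to 3 lower. The test over the 7 groups called 7 to 12 members and that among the 6 compounds 8 to 11.

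Depth limits the alpha cluster and most beta members: 24 of 53 members were not tested, and with 0 to 14 counts per library their differences were often not detectable. Beta members have close copies of each other, so reads could have been split between them.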
